A study of Mus musculus with 6 samples.

Results

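This account covers 8 genes that steer the formation of neurons: Neurog1, Neurod1, Nhlh1, Nhlh2, Insm1, Hes6, Hes1 and Hes5. They were measured by every probe set of a paired Affymetrix mouse array design (chip A and chip B) whose single annotated symbol was one of these names. All 8 genes were found, with 13 probe sets among 45137, out of 18193 genes with a name. All but Insm1, a zinc-finger factor, belong to the basic helix-loop-helix (bHLH) class.

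The arrays were made from OMP-GFP mice, in which GFP stands in for the coding region of Omp, the olfactory marker protein of mature olfactory and vomeronasal sensory neurons. The samples were olfactory sensory neurons (OSNs), mature ones isolated by their GFP (about 500000 cells), the olfactory epithelium from which those neurons had been removed (about 2500000 cells, here the residual cells, labelled residual epithelium in the plots) and brain without its olfactory bulbs. All 3 came from mice of that line, and no sample of another genotype is analysed here. The sources used here do not give zygosity, age, sex or the number of mice pooled. Each sample was hybridised to 1 array per chip, which makes 6 arrays without replication, and no difference below has a test or a p-value.

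In the olfactory epithelium new OSNs are made throughout life from basal progenitors. Proneural bHLH factors such as Neurog1 bind E-boxes in DNA as partners of the ubiquitous E proteins and push a progenitor to become a neuron, and Neurod1, Nhlh1 and Nhlh2 act in the steps after that choice. Notch signalling holds cells back from it by inducing Hes1 and Hes5, repressors of proneural genes, while Hes6 opposes Hes1. Insm1 is a repressor found in late progenitors and newly born neurons.

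Values are probe set signals, a scaled intensity on a linear scale. Signals at or below the lower quartile of a chip (70.3 on chip A, 79.7 on chip B) were set to that value, called the floor, before log2 ratios were taken, and a ratio against a floored signal is given as "at least". A comparison of 2 samples counts a gene only if its larger signal was at or above the chip median (222.0 on chip A, 243.7 on chip B), and a difference of at least 2-fold was called. The labels were checked with mature OSN markers. All 6 of them were higher in OSNs than in residual cells, and Omp gave a signal of 11057 in OSNs, 248.8 in residual cells and 201.4 in brain. Cnga2, a subunit of the olfactory transduction channel, had 10560 in OSNs, 588.0 in residual cells and 64.0 in brain, the last below the floor. Among probe sets of the same gene, log2 ratios differed from each other by a root mean square of 0.87 for OSNs over residual cells, 1.13 for OSNs over brain and 1.13 for residual cells over brain. The 100 probe sets present on both chips gave ratios that differed between chip A and chip B by a mean of 0.23, -0.19 and -0.42 for these comparisons in turn, with SDs of 0.25, 0.29 and 0.34. These spreads come from probes and arrays and do not measure variation between mice.

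**Figure D1:**
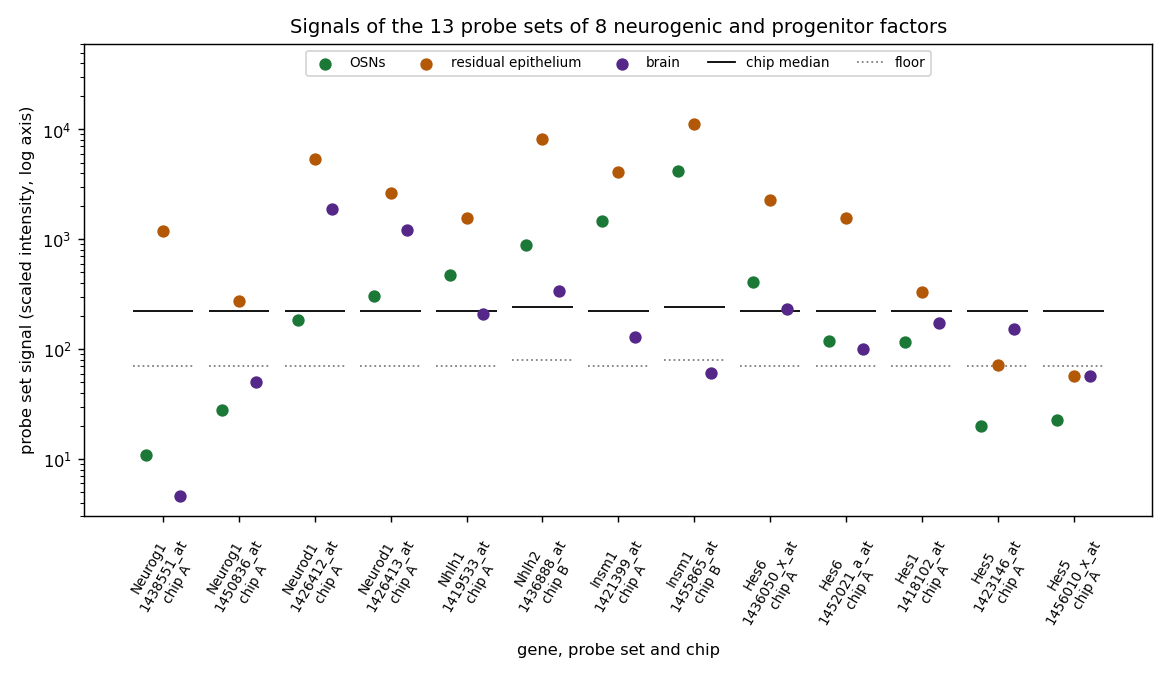
Probe set signal (scaled intensity, log axis) of the 13 probe sets in OSNs, residual cells and brain, 1 point per array, with the chip median as a solid line and the floor as a dotted line. Residual cells gave the highest signal for all probe sets but those of Hes5, and OSNs and brain lay below the floor for Neurog1.

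Residual cells held the highest signal of 7 of the 8 genes. Neurog1, the proneural factor that commits olfactory progenitors to the neuronal fate, was detected above the floor in residual cells alone. Its probe set 1438551_at gave a signal of 10.8 in OSNs, 1186 in residual cells and 4.6 in brain. The other, 1450836_at, had 27.8 in OSNs, 277 in residual cells and 50.5 in brain. Since OSNs and brain were below the floor on both, their values have no order. Neurog1 was at least 16.9-fold lower in OSNs than in residual cells by the first probe set and at least 3.94-fold lower by the second.

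Neurod1, which acts after Neurog1 and is also used by granule neurons of the brain, was high in residual cells, intermediate in brain and low in OSNs. Probe set 1426412_at gave a signal of 183.4 in OSNs, 5353 in residual cells and 1871 in brain. Probe set 1426413_at had 306.9 in OSNs, 2660.0 in residual cells and 1227 in brain. Both probe sets gave the same order of the samples, and they differed in size. Neurod1 was 29.2-fold lower in OSNs than in residual cells by the first and 8.67-fold lower by the second.

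Nhlh1 and Nhlh2, closely related bHLH factors of newly formed neurons, followed a different order, with OSNs between residual cells and brain. Nhlh1 (1419533_at) gave a signal of 471.6 in OSNs, 1565 in residual cells and 209.9 in brain. Nhlh2 (1436888_at, on chip B) had 883.0 in OSNs, 8212 in residual cells and 336.1 in brain. Nhlh1 was 3.32-fold lower in OSNs than in residual cells and Nhlh2 was 9.30-fold lower. Nhlh2 was above the chip median on all 3 arrays, and Nhlh1 was just below it in brain.

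Insm1 had the largest signal in OSNs relative to brain. Its chip A probe set 1421399_at gave a signal of 1455 in OSNs, 4087 in residual cells and 128.1 in brain. Its chip B probe set 1455865_at had 4151 in OSNs, 11162 in residual cells and 61.0 in brain, the last below the floor. Insm1 was therefore measured on separate arrays with separate probes. Its log2 ratios of OSNs over residual cells were -1.49 on chip A and -1.43 on chip B. The probe sets present on both chips gave ratios higher on chip A by a mean of 0.23 (SD 0.25). Different probe sets of a gene differed by 0.87, so the ratios of Insm1 cannot show whether that offset applied to it. The signal in OSNs was 35.6% of that in residual cells on chip A and 37.2% on chip B.

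Hes6, the relative of Hes1 that promotes differentiation, had similar, lower signals in OSNs and brain. Probe set 1436050_x_at gave a signal of 409.6 in OSNs, 2294 in residual cells and 233.6 in brain. Probe set 1452021_a_at had 118.2 in OSNs, 1572 in residual cells and 101.0 in brain. The suffix of the first marks probes that may also bind other transcripts, and the suffix of the second marks probes shared by several transcripts of the gene. Hes6 was 5.60-fold lower in OSNs than in residual cells by the first probe set and 13.3-fold lower by the second.

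Of the Notch effectors, Hes1 was counted and Hes5 was not. Hes1 (1418102_at) gave a signal of 116.5 in OSNs, 329.4 in residual cells and 172.7 in brain, so that only residual cells reached the chip median. Hes5 did not reach the chip median on any array and entered no comparison. Its probe set 1423146_at had 20.2 in OSNs, 71.9 in residual cells and 152.9 in brain, and 1456010_x_at had 22.8, 57.0 and 57.3 in the same order, all below the floor. By 1423146_at, Hes5 was the only one of the 8 genes with its highest signal in brain.

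OSNs and residual cells were compared first. Of the 8 genes 7 were counted, and 7 were at least 2-fold lower in OSNs, against 18.7% of all 12254 counted genes. The median log2 ratio of the 7 was -2.49, and that of all counted genes was -0.05. By the probe sets that stand for the genes, Neurog1, Neurod1 and Hes1 reached the chip median in residual cells but not in OSNs, so the sign of these ratios follows from the filter. The other probe set of Neurod1, 1426413_at, was above the median on both arrays and was 8.67-fold lower in OSNs as well. Nhlh1, Nhlh2, Insm1 and Hes6 (by 1436050_x_at) were above the chip median on both arrays, and these 4 were at least 2-fold lower in OSNs, as were 9.97% of the 9601 genes above the median on both, while 11.6% were higher. In a mixed tissue, fewer cells of a type and less RNA per cell cannot be told apart. All 11 probe sets that were counted were at least 2-fold lower in OSNs, as were 17.7% of all counted probe sets. For both probe sets of Neurog1, 1426412_at of Neurod1, 1452021_a_at of Hes6 and that of Hes1, the filter fixed the sign.

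The genes differed in how far their signal was lower. In order of log2 ratio, Neurod1 stood at -4.87, Neurog1 at -4.08 or lower, Nhlh2 at -3.22, Hes6 at -2.49, Nhlh1 at -1.73, Hes1 at -1.50 and Insm1 at -1.43. No gap between neighbours in this order was larger than the 0.87 by which probe sets of the same gene differed, so the order of neighbours is not resolved. Even the smaller of the ratios of Neurod1, -3.12 by 1426413_at, was larger in size than either ratio of Insm1. The related pair Nhlh1 and Nhlh2 differed by more than 0.87 as well, though on different chips and with 1 probe set each.

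**Figure D2:**
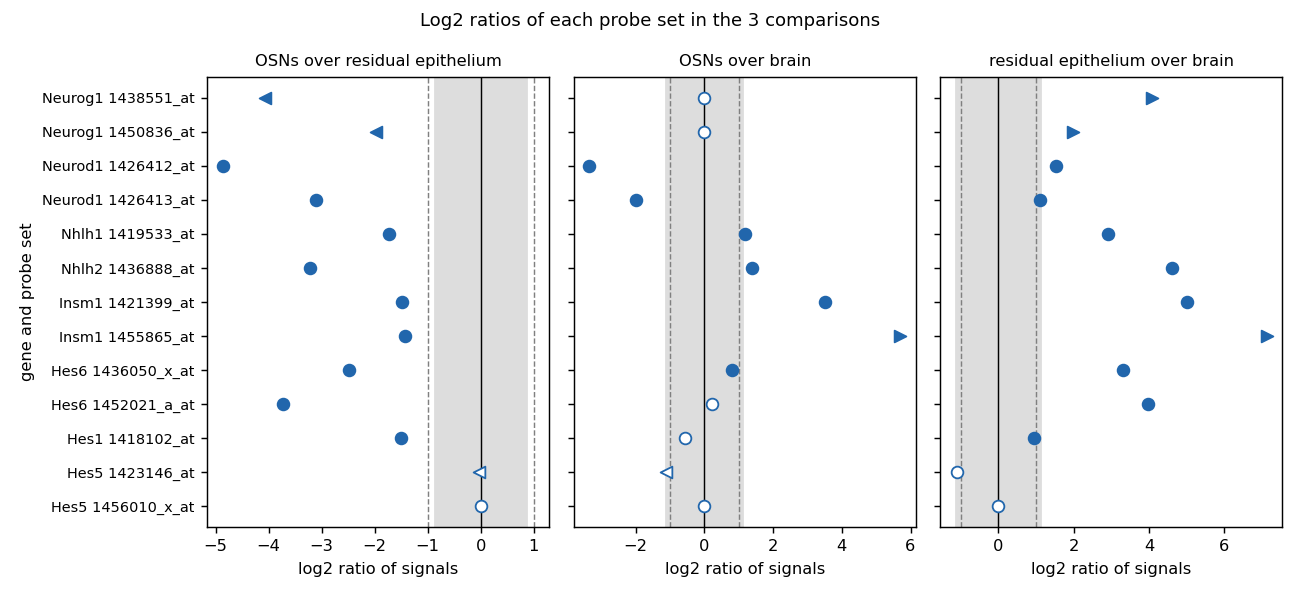
Log2 ratio of signals for each probe set in OSNs over residual cells, OSNs over brain and residual cells over brain. Triangles are bounds against the floor, open symbols were below the signal filter, the dashed lines mark 2-fold and the grey band is the root mean square difference between probe sets of the same gene. All filled symbols in the first panel lie at -1.43 or below, whereas the second panel has Neurod1 on the left and Insm1 on the right.

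Markers of most other cells listed here were also lower in OSNs than in residual cells, while sustentacular genes were mixed. Lists are given by the OSN sum as a share of the residual sum, with the floor in place of any signal below it. The summed signal of the 12 measured cell cycle genes was 4707 in OSNs and 35730 in residual cells, or 13.2%, and all 12 were at least 2-fold lower in OSNs (median log2 ratio -4.12), with 3 at or below the floor there. Neutrophil and marrow genes summed to 1231 in OSNs and 72010 in residual cells, or 1.71%, with all 8 lower and 4 at the floor in OSNs. Lymphocyte genes stood at 5.68%, with 6 of 6 counted genes lower and 3 of 7 at the floor in OSNs. Erythroid genes stood at 3.45% at most, with 3 of 3 counted genes lower and 4 of 4 at the floor in OSNs. The horizontal basal cell genes, which mark the reserve stem cells, stood at 21.4% at most, with all 5 lower and 4 at the floor in OSNs. Genes of Bowman glands stood at 7.83%, with 3 of 4 counted genes lower and 2 of 6 at the floor in OSNs. Genes of endothelial and stromal cells stood at 37.7%, with 2 of 3 counted genes lower and 1 of 6 at the floor in OSNs. Sustentacular genes stood at 67.8%, with 3 of 7 lower, 4 within 2-fold and none at the floor. Among them, Cyp2g1 had 3822 in OSNs and 2657 in residual cells, and Cyp1a2 had 424.4 and 334.7. Cbr2 was called lower, with 2977 in OSNs and 6857 in residual cells. Insm1, at 35.6% and 37.2%, Hes1 at 35.4% and Nhlh1 at 30.1% had larger shares than the cell cycle sum. Nhlh2 at 10.8% and Neurod1 at 3.43% and 11.5% had smaller ones. Hes6 had a probe set on either side, at 17.9% and 7.52%. Neurog1 was at most 5.93% by 1 probe set, and its other, at most 25.4%, could lie on either side. Pcna alone gave 3076 of the cell cycle sum in OSNs and 8147 of that in residual cells, so these sides depend largely on 1 gene. By log2 ratio, Nhlh2 at -3.22, Neurod1 at -3.12 by 1426413_at and Hes6 at -2.49 and -3.73 were above the cell cycle median of -4.12. Neurod1 at -4.87 by 1426412_at was below that median, and Neurog1, with bounds only, could lie on either side of it. The part of these cells in the OSN signals and in the ratios of the 8 genes was not tested.

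**Figure D3:**
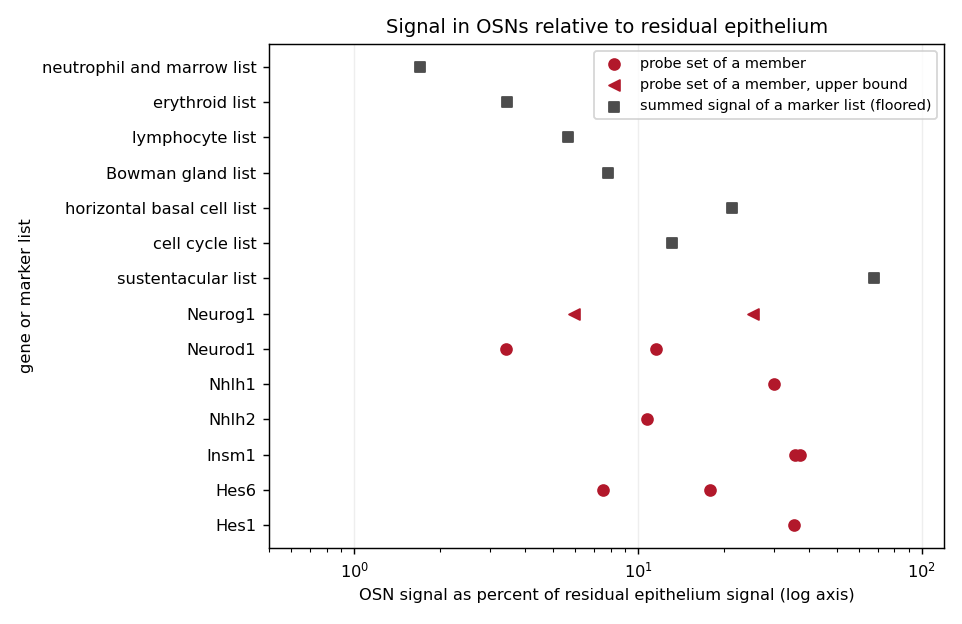
OSN signal as a percent of the signal in residual cells (log axis) for each probe set of the 7 counted genes and for the summed signal of 7 marker lists, with the floor in place of signals below it. Left-pointing triangles are upper bounds of single probe sets, where OSNs were at or below the floor. The members run from 3.43% for Neurod1 to 37.2% for Insm1, with Neurog1 at most 5.93% by one probe set and at most 25.4% by the other.

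Against brain the factors split. Of the 8 genes 5 were counted, 3 were at least 2-fold higher in OSNs, where 18.5% of the 12380 counted genes were, and 1 was lower, where 21.1% were. Insm1 was 11.4-fold higher in OSNs than in brain on chip A and at least 52.1-fold higher on chip B. Nhlh2 was 2.63-fold higher and Nhlh1 2.25-fold higher. Their log2 ratios of 1.39 and 1.17 were only slightly above the 1.13 by which probe sets of the same gene differed, and both passed 2-fold by little. With the arrays scaled on the probe sets present on both chips, Nhlh1 stood at 0.98 and was no longer called. That scaling moved the median of all counted genes by -0.30, and the share of all calls that were higher in OSNs was 34.3% with it and 46.7% without it.

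Neurod1 was the gene lower in OSNs than in brain, 10.2-fold by 1426412_at and with a log2 ratio of -2.00 by 1426413_at. Hes6 had a log2 ratio of 0.81, and its other probe set was below the filter with 0.23, neither past 2-fold. Neurog1, Hes1 and Hes5 were below the signal filter in both samples. Of 7 counted probe sets 4 were higher in OSNs and 2 lower, where 16.9% and 21.9% of all counted probe sets were. By the probe sets that stand for the genes, only Hes6 and Nhlh2 were above the chip median on both arrays, with Nhlh2 called, where 16.4% of such genes were higher in OSNs and 11.9% lower. For Insm1, Nhlh1 and probe set 1426412_at of Neurod1 the filter fixed the sign, and 1426413_at of Neurod1 was above the median on both arrays. In the order of log2 ratios, the gaps from Neurod1 at -3.35 to Hes6 at 0.81 and from Nhlh2 at 1.39 to Insm1 at 5.70 or higher were larger than 1.13, and those among Hes6, Nhlh1 and Nhlh2 were not. Brain neuron and brain glia markers were all at least 2-fold lower in OSNs, 6 of 6 and 7 of 7 counted genes.

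Residual cells and brain were compared last. Of the 8 genes 7 were counted, with 6 at least 2-fold higher in residual cells, against 22.5% of 12916 counted genes, and none lower, against 18.9%. Of 11 counted probe sets 10 were higher and none lower, where 20.6% and 20.4% of all counted probe sets were. Insm1 was 31.9-fold higher by its chip A probe set and at least 140.1-fold higher by its chip B probe set. Nhlh2 was 24.4-fold higher, Neurog1 at least 16.9-fold by 1438551_at and at least 3.94-fold by 1450836_at, Hes6 9.82-fold, Nhlh1 7.45-fold and Neurod1 2.86-fold. Hes1 was 1.91-fold higher and was not called. Only Neurod1, Nhlh2 and Hes6 (by 1436050_x_at) were above the chip median on both arrays. Of all such genes 16.3% were at least 2-fold higher in residual cells and 13.6% lower. For the rest, and for 1452021_a_at of Hes6, the filter fixed the sign. The gap in log2 ratio from Insm1 at 7.13 or higher, by its chip B probe set, to Nhlh2 at 4.61 was larger than 1.13. The chip A probe set of Insm1, 31.9-fold higher, lay within 1.13 log2 units of Nhlh2, 24.4-fold higher. Insm1 was therefore not set apart from Nhlh2 by both of its probe sets. The gap from Nhlh1 at 2.90 to Neurod1 at 1.52 was also larger than 1.13. This comparison uses the same residual and brain arrays as the others, so its values are no separate evidence. With scaling on the shared probe sets, 43.1% of all calls were higher in residual cells, against 54.3% without it, and the same number of members, 6, was called.

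**Figure D4:**
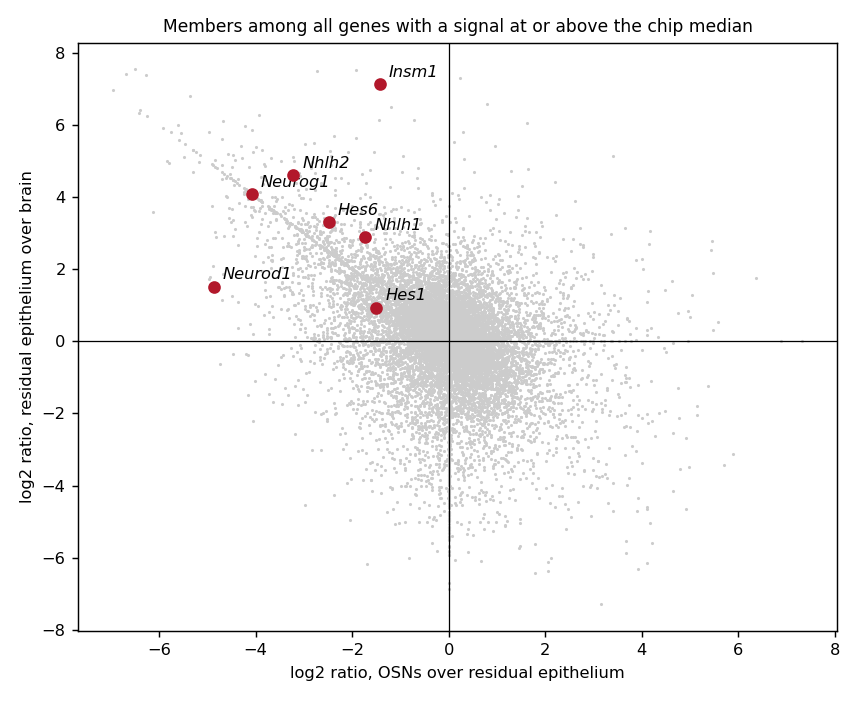
Log2 ratio of OSNs over residual cells (horizontal) and of residual cells over brain (vertical), with each grey point a gene whose highest signal was at or above the chip median and the 7 such members in red. The diagonal line of grey points holds genes at the floor in OSNs and brain, Neurog1 among them. Among the members Insm1, by its chip B probe set, lies highest, at 7.13 or above, and Neurod1 farthest to the left, at -4.87.

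In the plot of both ratios the members did not share a single position. The genes nearest to each were found by the Euclidean distance between the pairs of log2 ratios on the same chip, over 3 arrays, among 7193 genes on chip A and 6120 on chip B. Nearest to Insm1 was Fezf1, a zinc-finger factor of the olfactory lineage, yet at a distance of 1.22 log2 units, with 6241 in OSNs, 10351 in residual cells and 147.9 in brain. The next were 5430402E10Rik at 1.36 and Atp8b4 at 1.57. Nhlh2 had Eya4 (0.13), Mex3a (0.22) and Niban3 (0.42). Nhlh1 had Tes (0.10), Krt5 (0.10) and St6galnac2 (0.16). Hes6 had Jpt1 (0.10), Rfc4 (0.12) and Themis2 (0.14), and Hes1 had Shc1 (0.04), Klf5 (0.05) and Parva (0.05). Neurod1 had Stk17b (0.23), Coro1a (0.28) and H2-D1 (0.40). Neurog1 had Cenpa, Hbb-b2 and Lst1, all at the floor in OSNs and brain, so that only their residual signals, 1186, 1189 and 1152, placed them near it. The distances of Stk17b, whose OSN signal was below the floor, and of Krt5, St6galnac2 and Rfc4, whose brain signals were, rest on the floor too, as do all those of Insm1, whose own brain signal was below it. A pattern over 3 arrays is shared by many genes, and nearness says nothing beyond these signals.

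The DNA just before the start of transcription is shown for 5 genes that were lower in OSNs together, since proneural factors and Notch effectors act through short motifs. The windows hold the 250 bases before the annotated start, from RefSeq, build GRCm38.p6, read 5′ to 3′ on the gene's strand. Of the 8 genes 6 were in the RefSeq promoter table. Capitals mark E-boxes, CANNTG, on either strand.
Neurog1, chr13:56252181-56252430, minus strand: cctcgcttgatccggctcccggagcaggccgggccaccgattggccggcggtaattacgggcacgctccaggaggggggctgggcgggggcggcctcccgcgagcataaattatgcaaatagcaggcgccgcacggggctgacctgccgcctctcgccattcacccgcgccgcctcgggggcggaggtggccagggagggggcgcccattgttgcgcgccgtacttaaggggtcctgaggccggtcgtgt
Neurod1, chr2:79456637-79456886, minus strand: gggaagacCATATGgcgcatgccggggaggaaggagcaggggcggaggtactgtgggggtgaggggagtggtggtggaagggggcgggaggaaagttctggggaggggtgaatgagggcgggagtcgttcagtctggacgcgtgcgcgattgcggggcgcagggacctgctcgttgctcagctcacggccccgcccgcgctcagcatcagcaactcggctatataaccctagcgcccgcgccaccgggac
Nhlh1, chr1:172057597-172057846, minus strand: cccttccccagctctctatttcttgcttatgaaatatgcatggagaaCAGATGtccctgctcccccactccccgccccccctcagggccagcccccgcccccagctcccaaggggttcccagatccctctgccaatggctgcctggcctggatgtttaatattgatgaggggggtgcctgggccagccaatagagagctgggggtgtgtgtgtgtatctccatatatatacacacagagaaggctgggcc
Nhlh2, chr3:102009895-102010144, plus strand: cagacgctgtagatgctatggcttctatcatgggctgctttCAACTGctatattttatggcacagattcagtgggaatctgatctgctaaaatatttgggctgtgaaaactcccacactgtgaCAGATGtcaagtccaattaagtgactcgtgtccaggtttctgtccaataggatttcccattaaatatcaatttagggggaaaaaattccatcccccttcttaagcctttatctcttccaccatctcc
Hes6, chr1:91414039-91414288, minus strand: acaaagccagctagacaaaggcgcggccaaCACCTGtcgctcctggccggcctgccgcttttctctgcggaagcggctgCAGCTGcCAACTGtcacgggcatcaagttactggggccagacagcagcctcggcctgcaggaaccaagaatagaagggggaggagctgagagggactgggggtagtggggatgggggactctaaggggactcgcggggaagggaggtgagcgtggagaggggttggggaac

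The window of Neurog1 held no E-box, those of Neurod1 and Nhlh1 held 1, that of Nhlh2 held 2 and that of Hes6 held 3. Of 32851 promoter windows of the same length 66.2% held at least 1 E-box and 31.8% at least 2. A second annotated start of Hes6 had 1 E-box. Nhlh1 and Nhlh2 each had an E-box of the form CAGATG. The core of the RBPJ site through which Notch acts, TGGGAA on either strand, was found 2 times in the window of Nhlh2, 2 times in that of Hes5 and 1 time in that of Nhlh1. It was in 21.6% of all windows, and 2.77% held it at least 2 times. The N-box, CACNAG on either strand, which Hes repressors can bind, was found 1 time in Nhlh2 and 1 time at the second start of Hes6, and in 36.7% of all windows. No matches of different motifs overlapped in these windows. These matches describe letters in a window and are neither shown sites nor tied to the signals above.

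The partners of these factors were followed through lists of pathway genes, each set beside the background for OSNs over residual cells of 12.8% higher and 18.7% lower. Of the 7 E proteins, dimer partners of proneural factors, and Id factors, which sequester E proteins, 6 were called lower in OSNs and none higher (median log2 ratio -1.12). Id2 gave a signal of 168.8 in OSNs, 1338 in residual cells and 1027 in brain, 7.93-fold lower in OSNs than in residual cells. Id1 was 3.91-fold lower. Tcf12 was 2.09-fold lower, and its probe sets ranged from -1.16 to -0.52. Id4 went against the rest with 6723 in OSNs, 4484 in residual cells and 2345 in brain, a log2 ratio of 0.58 that did not reach 2-fold.

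Of 11 measured genes of the list of other proneural bHLH factors, 5 were counted, 1 was called lower in OSNs and none higher (median -0.53). The lower gene was Ascl3, a factor of microvillar and gland cells, with 613.0 in OSNs, 1820 in residual cells and 351.9 in brain. Olig2, best known from oligodendrocytes, was at -0.97, Neurod2 at -0.19 and Atoh1 at 0.30. Of 11 other Hes and Hey factors and corepressors 6 were counted, with 3 lower and none higher (median -0.75). Hey1, a Notch effector, was 2.94-fold lower and Tle4, a Groucho corepressor that Hes proteins recruit, 2.61-fold lower. Tle3, another Groucho protein, was at 0.66 (0.03 to 0.66 over its probe sets), and Heyl at 0.99.

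Notch pathway genes went both ways, with 17 of 20 counted, 3 higher and 5 lower in OSNs (median 0.06). Dtx1, a Deltex ubiquitin ligase of the pathway, had 3949 in OSNs, 422.2 in residual cells and 1304 in brain, 9.35-fold higher in OSNs than in residual cells. Jag1, a ligand, was 2.63-fold higher, and its probe sets ranged from 0.40 to 1.48. Mfng, a glycosyltransferase that modifies Notch, was 8.32-fold lower, and Notch2, a receptor, 7.60-fold lower. Of the Notch effectors among the 8 genes, Hes1 was lower and Hes5 was not counted.

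Among Insm1 partners and relatives, which include subunits of the histone deacetylase and demethylase complex that its SNAG domain recruits, 7 of 9 were counted and 5 were lower in OSNs, with none higher (median -1.09). Rcor2 was 3.88-fold lower and Gfi1b, a SNAG-domain factor of blood precursors, at least 3.96-fold. Hdac1 was at -0.25 and Hdac3 at 0.13. Against brain the same list had 3 of 6 counted genes higher in OSNs and none lower, where 18.5% of all counted genes were higher and 21.1% lower.

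Of 24 measured progenitor and early neuron genes 23 were counted, with 13 lower in OSNs and none higher (median -1.28). Cxcr4, a chemokine receptor of precursors that blood cells also carry, had 107.8 in OSNs, 2568 in residual cells and 40.7 in brain, 23.8-fold lower in OSNs than in residual cells. Ezh2, a Polycomb histone methyltransferase, was 6.08-fold lower. Dcx and Elavl3, a microtubule protein and an RNA-binding protein of young neurons, were at 0.90 and 0.49 and so within 2-fold. The probe sets of Dcx ranged from 0.85 to 1.38, so not all were within 2-fold. Those of Sox4, which was called lower, ranged from -3.57 to 1.63. Against brain, 9 of 21 counted genes of this list were higher in OSNs and 3 were lower, where 18.5% and 21.1% of all counted genes were. Of 23 counted genes 15 were higher in residual cells than in brain and none was lower, where 22.5% and 18.9% of all counted genes were.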

How the data were processed

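The deposited tables hold 1 intensity for each probe set, linear and in a single colour. These were computed by the authors with MAS5, per the submitters' processing notes, which name it for 5 of the 6 arrays, no version given, and not for brain on chip A. The mean of each array between percentiles 2 and 98 lay between 499.604 and 499.874, so arrays had been scaled to a common level, and amounts per cell cannot be compared. The sources used here do not give background correction or detection calls. The number of arrays limits the precision.

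Symbols came from the platform annotation, updated by Entrez identifier to GRCm38.p6 RefSeq. Of 45137 probe sets 35041 had a single symbol, 936 several and 9160 none, and 64 control probe sets per chip, not used otherwise, entered the floor and the median. The floor was percentile 25 of the signals of a chip and the filter its median. For a gene with several probe sets, the one ranked highest on its chip by mean log2 signal stood for the gene. Members, lists and rules were chosen with earlier results of these data known. The text names all members, the highest and lowest pair of counted genes of each pathway list in OSNs over residual cells, the 3 genes nearest to each member, and Omp and Cnga2. Pcna, Sox4, Cyp2g1, Cyp1a2 and Cbr2 were added after their values were seen. The computation was tested on simulated arrays. Alternatives covered the floor, the filter, the normalization, the choice of probe set and the threshold. Scripts ran in Python 3.11.15 with pandas 2.3.3, numpy 2.4.6 and, for plots, matplotlib 3.10.9.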

Additional observations from a re-analysis of the deposited data

How the results depend on the processing

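Over the 11 alternatives, the number of members past the threshold stayed within 1.5 times the value reported, except at a 4-fold threshold, where 4 members were lower in OSNs than in residual cells and 2 differed between OSNs and brain. Without the filter, Hes5 was called lower than in brain, at -1.09 in residual cells and at -1.12 or lower in OSNs. The absence of a member lower in residual cells than in brain thus depends on the filter. Of 183 ratios of single members under alternatives, 27 moved by more than the SD between chips and 0 changed sign. Alternatives that change only the filter could not move a ratio, so part of the 183 stayed the same by construction. Of 17 ratios past 2-fold, 1 was under it in an alternative, that of Nhlh1 in OSNs over brain (0.98, scaling on shared probe sets). With quantile normalization Hes6 in OSNs over brain and Hes1 in residual cells over brain came just past 2-fold. Neurog1 in OSNs over residual cells ranged from -4.35 to -3.02, and in residual cells over brain from 2.46 to 4.50, since its bound follows the floor and the choice of its probe set. No paired analysis was possible because each population had 1 array per chip. Without detection calls, signals near the floor set only bounds.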

Other observations

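Of 3 genes of neuroendocrine secretion, known from other cells that use Insm1, 1 was lower in OSNs than in residual cells as Insm1 was. Chga, a granule protein, gave a signal of 10763 in OSNs, 840.3 in residual cells and 1382 in brain. Chgb, a related granule protein, had 1063 in OSNs, 68.6 in residual cells and 5579 in brain. Scg2, a secretogranin, had 365.1 in OSNs, 1673 in residual cells and 3131 in brain. Thus Chga and Chgb, with the residual signal of Chgb below the floor, were higher in OSNs than in residual cells and Scg2 was lower. Of 5 vomeronasal neuron genes, a list that holds Nhlh1, 1 was higher in OSNs than in residual cells and 2 were lower, with a median log2 ratio of -0.91. These genes were named from marker lists after their values were seen.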
